A study of Mus musculus with 2 samples.

Results

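The genes described here encode the digestive machinery of the lysosome: 46 genes for cathepsins and other proteases, glycosidases, lipid hydrolases, the proton pump that acidifies the organelle, and lysosomal membrane proteins and transcriptional regulators. They were listed by name, with levels used to pick the brightest row where a gene had several, and 45 of the 46 were found among the 19871 genes of the table under a single gene symbol. The remaining one, the proton pump subunit Atp6v0c, was not analysed here. Macrophages were grown from the marrow of mice aged 8 weeks in L929-conditioned medium, in which fibroblasts of the L929 line have released the macrophage growth factor M-CSF. Their RNA was hybridised, after biotin labelling, to Affymetrix 1.0 ST arrays, 1 for control macrophages and 1 for macrophages labelled beta-catenin deficient. The sources used here do not give the mouse line, Cre driver, deleted exons, sex or number of animals behind a culture, nor any allele that the control may carry. At issue is what the macrophage expresses differently without beta-catenin, a cadherin-bound adhesion protein and the nuclear effector of Wnt signalling.

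Lysosomes degrade what a macrophage engulfs. Their enzymes work at acid pH, which the vacuolar ATPase maintains by pumping protons across the membrane, and most soluble hydrolases reach the organelle by a mannose 6-phosphate tag. The transcription factors TFEB, TFE3 and MITF bind an E-box element in the promoters of many lysosomal genes and can raise their transcription together, while the kinase complex mTORC1, which sits on the lysosomal surface, holds TFEB and TFE3 in the cytoplasm.

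Because each group had a single array, no value below carries a replicate error or a p-value, and "higher" and "lower" describe these 2 arrays only. Values are log2 values made by RMA, and a difference is the array labelled deficient minus the control array, so a difference of 0.58 is 1.5-fold. A gene was counted as higher or lower when it was at least 1.5-fold apart and the higher of its values reached 7.28, the median of the whole table, called the floor. RMA values of different genes are read by different probes, so a level does not rank the amount of one transcript against another. Across genes, levels serve only as a measure of brightness, for the floor and to group genes of like level.

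The label was checked first. Ctnnb1, the gene of beta-catenin, was at 11.29 in the control array and at 11.44 in the array labelled deficient, so the array level does not show a loss of the transcript. Axin2, a feedback gene that Wnt signalling switches on through beta-catenin, was at 7.61 and 5.97, a difference of -1.64, with the second value under the floor. Probes outside the deleted exons would not read a deletion, and the sample is therefore named by its label only. Of 10 macrophage markers, 9 reached the floor and 8 of these lay within 1.5-fold. The remaining one was the Fc receptor Fcgr1, at 10.56 and 11.35, 0.78 higher. Within 1.5-fold were the mannose receptor Mrc1 (0.50), the receptor kinase Mertk (0.42) and the lysozyme gene Lyz2 (-0.38). Adgre1, a surface marker of mature macrophages, was at 12.23 in both arrays, and the scavenger receptor Cd163 was below the floor in both. Markers of other cells were not level. Of 9 stromal markers at or above the floor, 8 were higher and 0 lower, led by Cxcl12 with 2.87, and the linear values of the 10 listed stromal markers summed to 4232 in control and 10924 in the array labelled deficient. Such sums weigh genes with brighter probes more and are compared between arrays only. Of 12 neutrophil granule markers, 11 were higher and 0 lower, led by Retnlg with 2.57. The remaining one, Camp, lay within 1.5-fold at -0.43, from 8.28 to 7.85. The linear values of all 12 summed to 7937 and 18133. Retnlg, Ctsg and Prtn3 were under the floor in control and reached it only in the array labelled deficient. The same holds for the stromal markers Pdgfra and Thy1. Of 8 osteoclast markers at or above the floor, 4 were higher and 0 lower, led by Atp6v0d2 with 1.81, and all 10 listed summed to 5718 and 11525. Atp6v0d2 weighs most in the second sum. Below 0 by less than 1.5-fold were Ocstamp and Nfatc1, each at -0.43, and Calcr (-0.69) was below the floor in both arrays. Dendritic cell markers, of which 3 of 8 reached the floor, went both ways, with Itgax 1.53 higher and Ccr7 0.63 lower. Cd209a, 0.94 higher, reached the floor only in the array labelled deficient. Of 7 mast cell and basophil markers, 4 reached the floor and 3 of them were higher, led by Prss34 with 2.31. Those 3, Prss34, Cpa3 and Mcpt8, were under the floor in control and reached it only in the array labelled deficient. Hdc was level (0.019), and Kit (-0.054), Fcer1a (-0.45) and Ms4a2 (0.11) were below the floor in both arrays. In bulk RNA, fewer cells of a type and less RNA per cell cannot be told apart. The part of these cells in the lysosomal differences below was not tested.

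Lysosomal genes were bright, and most lay within 1.5-fold, as did 8915 of the 10658 genes that reached the floor. All 45 reached the floor, 40 lay within 1.5-fold, 4 were at least 1.5-fold higher and 1 was at least 1.5-fold lower in the array labelled deficient. The 4 were Mitf (0.70), the acid lipase gene Lipa (0.64), the cathepsin gene Ctsl (0.63) and the alpha-galactosidase gene Gla (0.60), and the lower gene was Naglu (-0.66), an enzyme of heparan sulfate breakdown. Of the 10658 genes that reached the floor, the higher ones by this rule made up 7.54% and the lower ones 8.81%, so the 8.89% of lysosomal genes on the higher side is near the background. On the lower side the share of lysosomal genes was 2.22%, which is 1 gene. At 2-fold, 0 lysosomal genes were higher and 0 lower, against 2.96% and 1.59% of those genes.

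**Figure D1:**
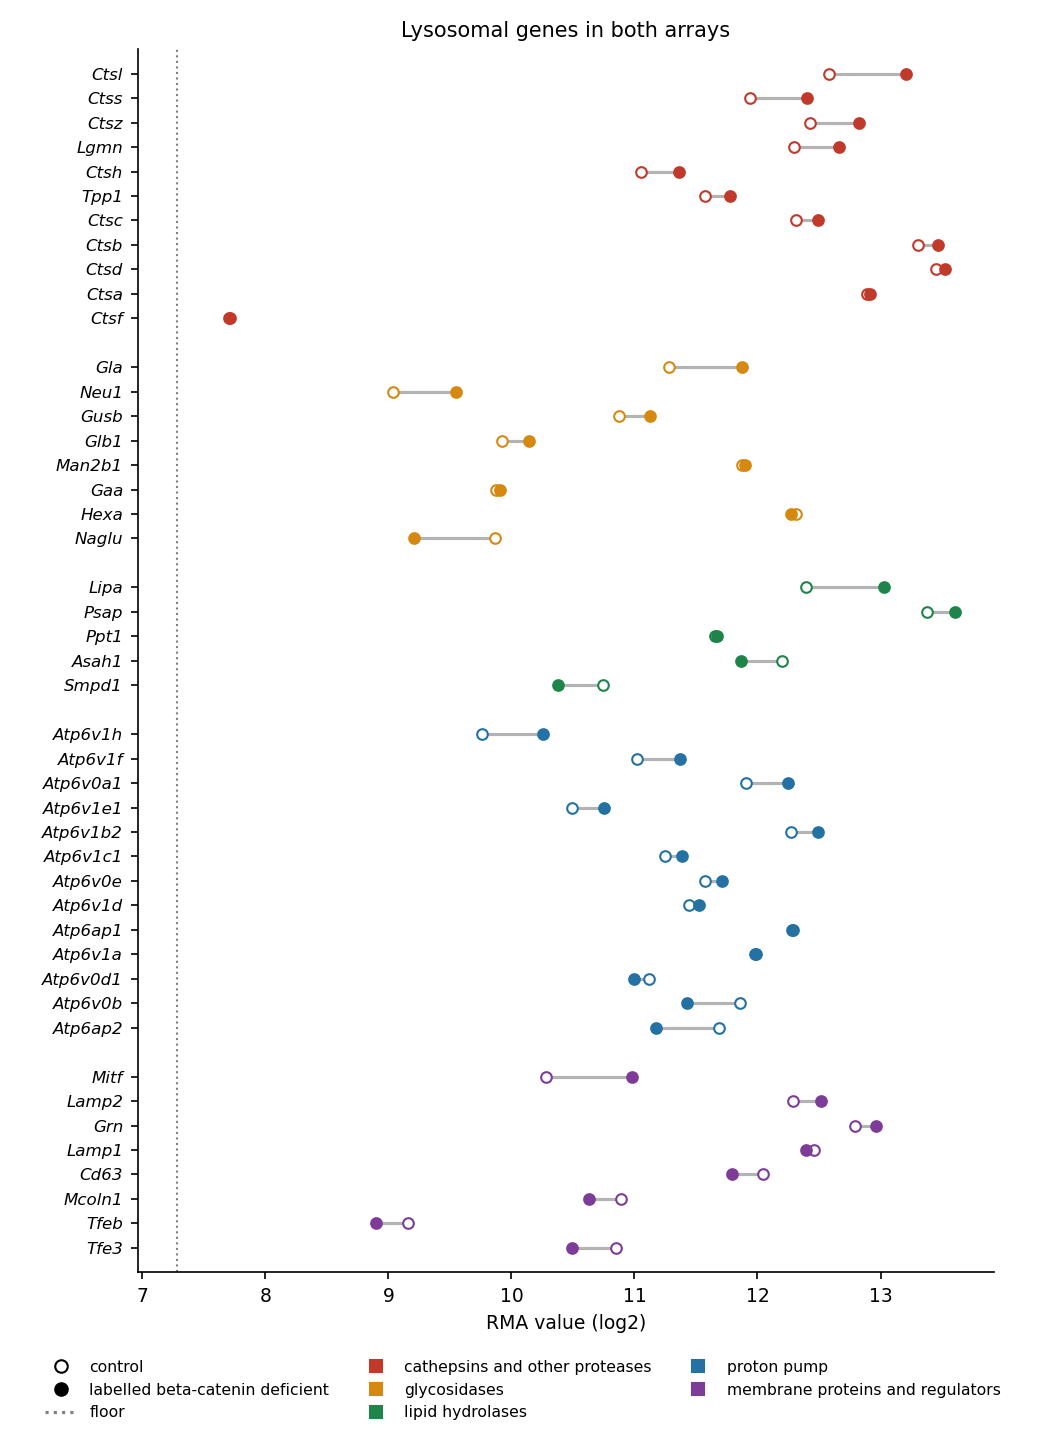
RMA values on the log2 scale (horizontal axis) of the 45 lysosomal genes, open circles for the control array and filled circles for the array labelled beta-catenin deficient, coloured by role and sorted by difference within each role; the dotted line is the floor of 7.28. The filled circle lies to the right of the open one for all 11 proteases and for 10 of 13 pump genes, and Naglu has the longest line to the left.

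The small differences leaned to the higher side. Of the 45 genes, 33 had a difference above 0 and 12 below 0, with a median of 0.14 and quartiles of -0.034 and 0.31. Over all genes at or above the floor the median was -0.079, and 41.1% had a difference above 0 and 58.9% below 0. With the limit lowered to 0.32 on the log2 scale, 11 of the 45 were higher and 6 lower, or 24.4% and 13.3%, against 16.2% and 24.9% of all genes. The lower limit was among the alternatives, and these shares are given as a description.

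Because lysosomal genes were bright and the difference over all genes moved with level, each gene was also set beside genes of its own level. Genes with a mean level from 11 to 12 had a median difference of -0.0027, and 49.3% of them were above 0. Of the 15 lysosomal genes in that range 11 were above 0. From 12 to 13 the median over 236 genes was 0.0043 and these genes were evenly split around 0, whereas 12 of 15 lysosomal genes were above it. Summed over the ranges of level, 33 of the 45 lay above the median of genes of their own level, 19 above the upper quartile and 7 below the lower quartile. Lipa and Ctsl lay above the 95th percentile of their range (0.62), and no lysosomal gene lay below the 5th.

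**Figure D2:**
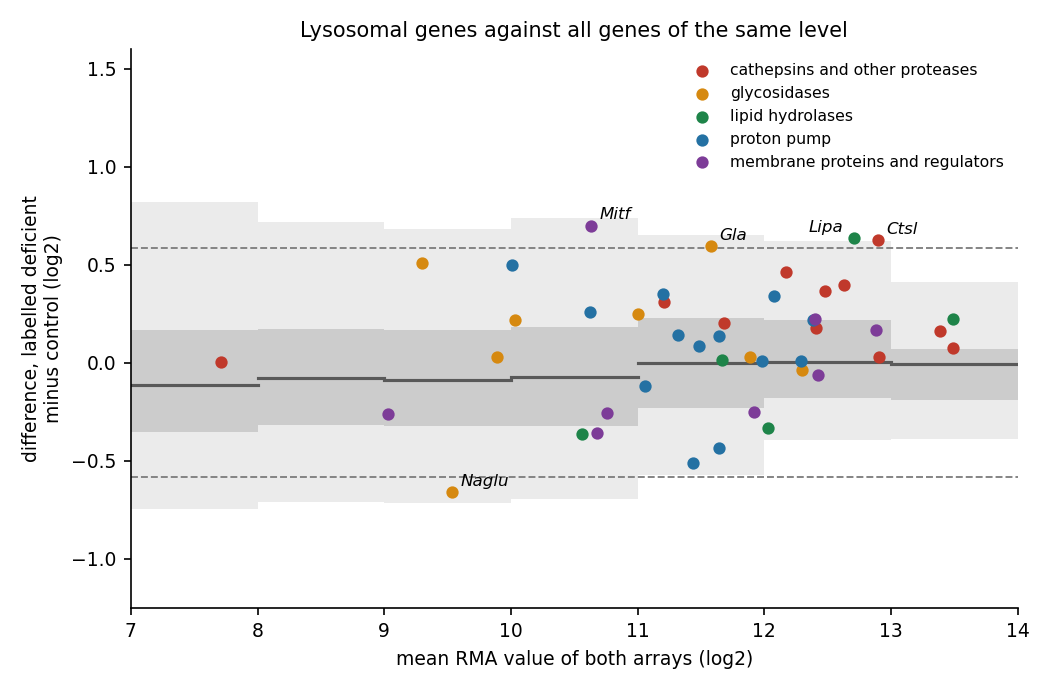
Difference in log2 units, array labelled deficient minus control (vertical axis), against the mean RMA value of both arrays (horizontal axis) for the 45 lysosomal genes, with the median (line), quartiles (dark band) and 5th to 95th percentiles (light band) of all genes at or above the floor in steps of 1; dashed lines mark 1.5-fold. Above a level of 11 most points lie over the median line, and Lipa and Ctsl lie just above the light band.

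Promoter sequences were searched for the E-box element because the factors named above bind it. RefSeq windows from 250 bases before to 50 after an annotated start (build GRCm38.p6) were matched by symbol to 40 of the 46 genes. The core CACGTG was found in the windows of 15 of these 40 genes (37.5%), against 12% of 8599 genes at or above the floor and 8.09% of all 27025 genes with a window. The longer TCACGTGA, which contains the core, was found in 7 of 40 (17.5%), against 2.37% and 1.12%, and its 10-base form, with G before and C after, in 0 of 40, against 0.837% and 0.37%. Each of these reads the same on both strands. Among lysosomal genes outside the set the core was found in 3 of 20 other hydrolases (15%) and 2 of 18 other membrane proteins (11.1%). The 10-base form, which contains both shorter ones, was first described from lysosomal genes, so all these shares are descriptions of the list. The stretches below are those around the sites of the genes with the largest differences on either side and of other genes with a site, with the 6-base or, where present, the 8-base element in capitals, in the direction of transcription.
Ctsl, chr13:64370739-64370768, - strand: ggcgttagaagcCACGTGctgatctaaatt
Gla, chrX:134601182-134601244, - strand: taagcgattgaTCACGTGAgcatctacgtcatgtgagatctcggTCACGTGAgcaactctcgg
Naglu, chr11:101070009-101070038, + strand: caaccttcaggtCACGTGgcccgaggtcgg
Lgmn, chr12:102439124-102439153, - strand: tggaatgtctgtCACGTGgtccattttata
Glb1, chr9:114401018-114401047, + strand: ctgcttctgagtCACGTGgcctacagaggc
Ctsd, chr7:142387908-142387937, - strand: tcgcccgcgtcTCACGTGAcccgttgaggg
Ctsa, chr2:164833749-164833778, + strand: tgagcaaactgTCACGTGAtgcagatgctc
Lamp1, chr8:13159088-13159160, + strand: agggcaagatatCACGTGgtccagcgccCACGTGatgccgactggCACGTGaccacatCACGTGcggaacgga
Mcoln1, chr8:3500436-3500491, + strand: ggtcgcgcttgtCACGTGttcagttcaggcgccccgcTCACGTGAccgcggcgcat
Atp6v0b, chr4:117887330-117887377, - strand: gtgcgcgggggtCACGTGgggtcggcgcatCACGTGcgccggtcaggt
Atp6v1a, chr16:44139373-44139402, - strand: ttttttttaaaTCACGTGAtaggcttaacg
Atp6v0d1, chr8:105566050-105566079, - strand: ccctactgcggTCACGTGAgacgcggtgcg

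Lamp1 held 4 cores, at 61, 45, 28 and 15 bases before the annotated start, and Ctsd, Ctsa, Gla, Mcoln1 and Atp6v0b held 2 each. The stretch printed for Ctsa is limited to 30 bases and shows the first of its cores, which begin 12 bases before and 5 after the start. Of 23 cores in all, 17 began within 100 bases of the start. The exceptions among the printed stretches were Ctsl (236 bases before the start), Gla (227 and 194) and Atp6v1a (131). No match in a window says only that these letters are not in it.

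**Figure D3:**
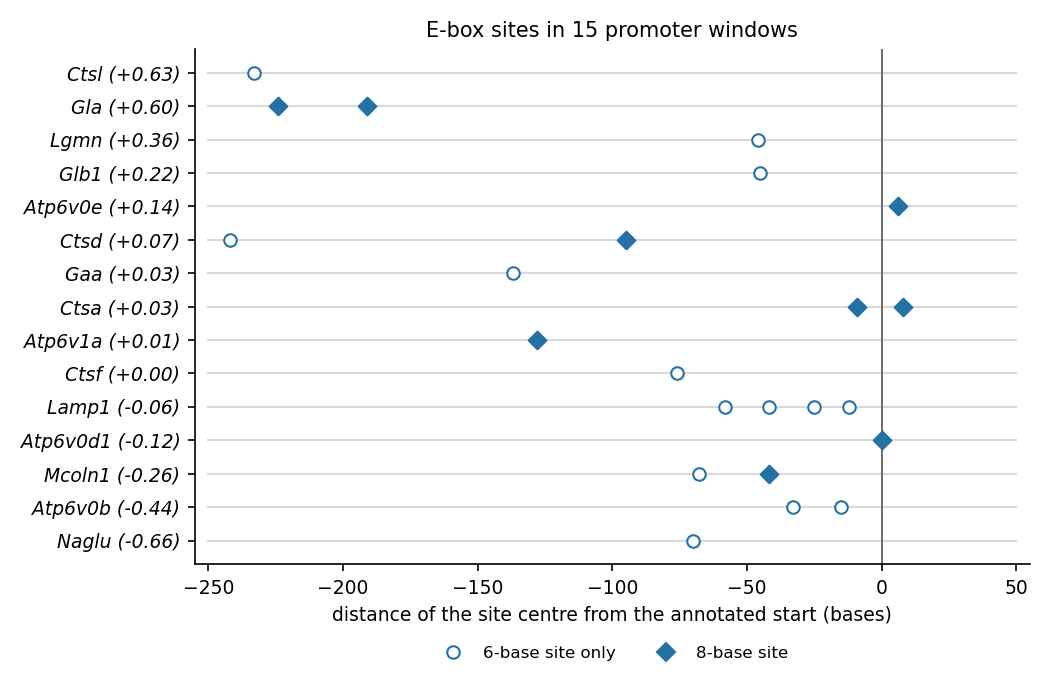
Position of each E-box core relative to the annotated start (horizontal axis, bases, negative before the start) in the 15 promoter windows that held one, ordered by the gene's log2 difference, which stands beside its name; diamonds are sites that are also the 8-base element. Genes with sites range from Ctsl at 0.63 to Naglu at -0.66.

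Genes with and without the element overlapped in their differences. The 15 genes with the core had a median difference of 0.028, from -0.66 to 0.63, and the 24 measured genes whose window lacked it had a median of 0.19, from -0.51 to 0.70. Over all genes at or above the floor the medians were -0.074 with the core (1031 genes) and -0.082 without it (7568 genes). Gla with 2 copies of the 8-base element and Naglu with 1 core near the start lay on opposite sides, at 0.60 and -0.66.

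Of 11 protease genes, 1 was at least 1.5-fold higher, 0 lower and 10 in between. Among all genes at or above the floor, 7.54% were higher and 8.81% lower. All 11 proteases had a difference above 0 in the deposited values, of which 3 were under 0.1, and the median was 0.21. The 7 papain-type cathepsins, the cysteine proteases of the lysosome, had a median of 0.31. Ctsl, an endopeptidase that degrades proteins broadly, was at 12.58 in control and 13.21 in the array labelled deficient, a difference of 0.63. Ctss, which trims the invariant chain of MHC class II in antigen-presenting cells, was at 11.94 and 12.40. Ctsz, a carboxypeptidase, was at 12.43 and 12.83. These 3 had the largest differences of the group. Legumain, Lgmn, which cuts after asparagine and activates cathepsins, was at 12.29 and 12.66, and the aminopeptidase Ctsh at 11.06 and 11.37. The tripeptidyl peptidase Tpp1, whose loss causes a childhood form of neuronal ceroid lipofuscinosis, was at 11.57 and 11.78. Both Ctsb (13.31 and 13.47) and Ctsc (12.32 and 12.50), the peptidase that activates granule serine proteases, were under 0.2 apart. The remaining 3 proteases were level between the arrays: the aspartic protease Ctsd at 13.45 and 13.52, the serine carboxypeptidase Ctsa, which also protects Neu1 and Glb1, at 12.89 and 12.92, and Ctsf at 7.71 in both. Ctsf was the one lysosomal gene with a mean level under 9.

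Glycosidases, which trim sugars from glycoproteins, glycolipids and glycosaminoglycans, split. Gla, which removes terminal alpha-galactose from globotriaosylceramide and is the gene of Fabry disease, was at 11.28 in control and 11.88 in the array labelled deficient, a difference of 0.60. The sialidase Neu1 was at 9.04 and 9.55, a difference of 0.51 that passed 1.5-fold (0.60) when a loess curve on level was subtracted. Naglu, which removes N-acetylglucosamine from heparan sulfate, went the other way, at 9.87 and 9.21, a difference of -0.66 that was -0.57 and no longer 1.5-fold after loess. The ends of the group thus rest on values near the 1.5-fold limit. Beta-glucuronidase, Gusb, was at 10.88 and 11.13, and beta-galactosidase, Glb1, at 9.92 and 10.14. Acid alpha-glucosidase, Gaa, which degrades glycogen, was at 9.87 and 9.90, and the alpha-mannosidase Man2b1 at 11.87 and 11.90. Hexa, the alpha chain of the hexosaminidase that degrades GM2 ganglioside, was at 12.31 and 12.28, a difference of -0.034 that turned positive under centring and loess. These last 3 were level. The group's median was 0.12.

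Of the 5 lipid hydrolase genes, 1 was 1.5-fold higher and 4 lay within 1.5-fold. By that rule 7.54% of all genes at or above the floor were higher and 8.81% lower. Lipa, the acid lipase that frees cholesterol from the esters of engulfed lipoproteins, was at 12.39 in control and 13.03 in the array labelled deficient, a difference of 0.64. Psap, the precursor of the saposins that present sphingolipids to their enzymes, was at 13.38 and 13.60. The enzymes that cut sphingomyelin and ceramide were lower by less than 1.5-fold: acid sphingomyelinase, Smpd1, was at 10.75 and 10.38, a difference of -0.36, and acid ceramidase, Asah1, at 12.20 and 11.86, a difference of -0.33. Ppt1, which removes palmitate from proteins, was at 11.66 and 11.67, level, with a sign that turned under quantile normalization. The median of the 5 genes, 0.017, is the value of Ppt1 and turned with it.

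None of the 13 measured pump genes of the set was 1.5-fold apart in the transcript cluster that was kept. Over all genes at or above the floor, 7.54% were higher and 8.81% lower by that rule. The vacuolar ATPase joins a cytosolic V1 sector, which hydrolyses ATP, to a V0 sector in the membrane, which carries the protons. All 7 V1 subunits had a difference of 0 or more, with a median of 0.22, although Atp6v1a turned below 0 under quantile normalization. The largest was that of Atp6v1h, a regulatory subunit, at 9.76 and 10.26, a difference of 0.50. The rotor subunit Atp6v1f was at 11.02 and 11.37. Another transcript cluster of the same name was at 10.31 and 10.99, a difference of 0.68. The stator subunits Atp6v1e1 and Atp6v1c1 were at 10.49 and 10.75 and at 11.25 and 11.39. Of the pair that forms the catalytic head, Atp6v1b2 was at 12.27 and 12.49 and Atp6v1a at 11.98 and 11.99. Atp6v1d, the rotor shaft, was at 11.44 and 11.53.

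V0 subunits went both ways. Atp6v0a1, the a1 isoform of the subunit that forms the proton channel with the ring, was 0.34 higher, from 11.91 to 12.25, and Atp6v0e was 0.14 higher, from 11.58 to 11.71. Atp6v0b, a proteolipid of the membrane ring, was 0.44 lower, from 11.86 to 11.42, and Atp6v0d1, the link between ring and V1, was 0.12 lower, from 11.12 to 11.00. Their median was 0.0073. The accessory subunits differed from each other, Atp6ap1 being level at 12.28 and 12.29 and Atp6ap2, also known as the prorenin receptor, 0.51 lower, from 11.69 to 11.18. The pump genes as a whole had a median of 0.14.

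Membrane proteins and regulators had a median below 0, at -0.16, against -0.079 over all genes at or above the floor. Of the 8 genes, 5 had a difference below 0, near the 58.9% of all genes. Lamp1 and Lamp2, the most abundant glycoproteins of the lysosomal membrane, were at 12.46 and 12.39 and at 12.29 and 12.51, and the sign of the Lamp1 difference, -0.064, turned under centring. The tetraspanin Cd63 was 0.25 lower, from 12.05 to 11.80, and the calcium channel Mcoln1 was 0.26 lower, from 10.89 to 10.63. Progranulin, Grn, which is cleaved into granulins in the lysosome, was 0.17 higher, from 12.79 to 12.96.

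Of the factors that bind the E-box element, Mitf was 1.5-fold higher and Tfeb and Tfe3 lay within 1.5-fold. Mitf was 0.70 higher, from 10.28 to 10.98, while Tfeb was 0.26 lower, from 9.16 to 8.90, and Tfe3 0.36 lower, from 10.85 to 10.50. Mitf was read by 2 transcript clusters, and the dimmer one, below the floor at 4.56 and 4.84, differed by 0.29. With the mean over both clusters Mitf was 0.49 higher and no longer 1.5-fold. Tfec, the remaining member of the family, which is largely restricted to myeloid cells, was 0.75 higher, from 9.46 to 10.21. Thus Mitf and Tfec passed 1.5-fold, and Tfeb and Tfe3 had differences below 0 that did not.

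**Figure D4:**
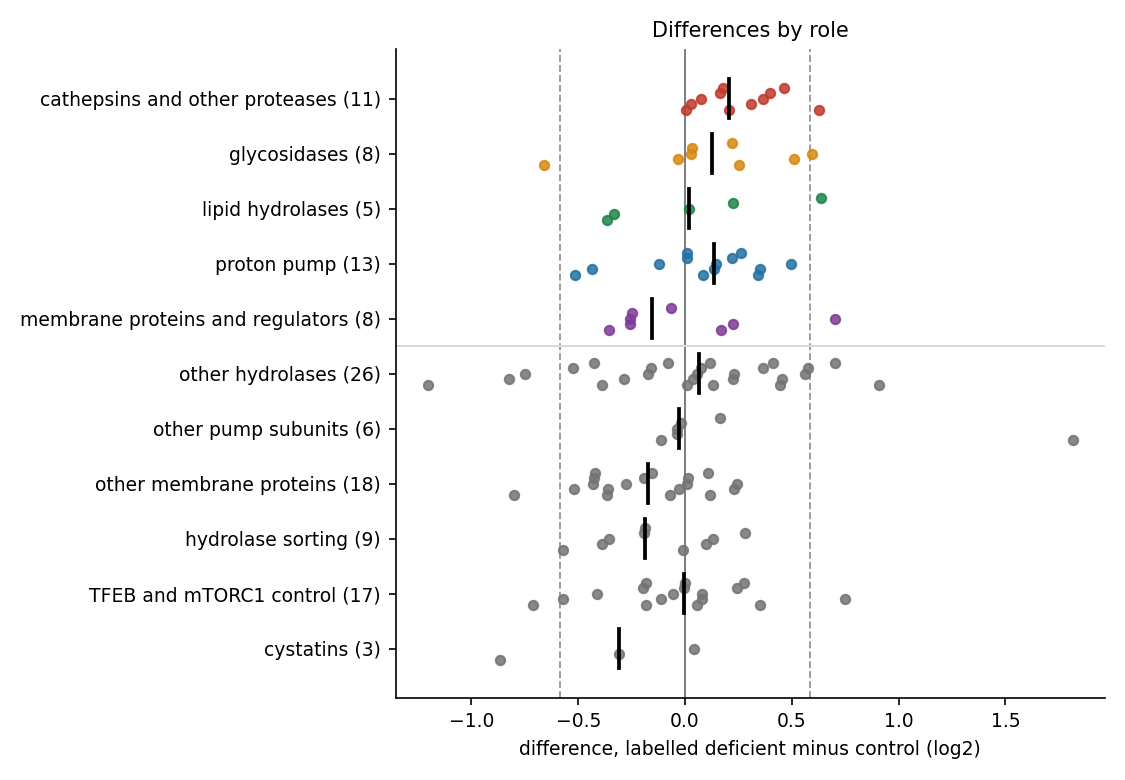
Log2 differences, array labelled deficient minus control (horizontal axis), of the lysosomal genes by role (coloured, above the grey line) and of other genes of the pathway at or above the floor (grey, below it), with the number of genes in brackets, vertical bars for medians and dashed lines at 1.5-fold. All proteases lie at or right of 0, and Atp6v0d2, at 1.81 among the other pump subunits, lies farthest to the right.

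Other genes of the pathway were described from 6 further lists. Of 26 other lysosomal hydrolases, 2 were higher by 1.5-fold or more and 3 lower, around a median of 0.066. These are 7.69% and 11.5%, against 7.54% and 8.81% of all genes at or above the floor. Under centring, quantile normalization or loess 4 were higher, with Ggh and Acp5 (0.56 and 0.58 in the deposited values) added, of which Acp5 is also in the osteoclast list. Ctsk, the collagen-cutting cathepsin that is also in the osteoclast list, was 0.91 higher, from 8.03 to 8.94, which is under the stricter floor of 9.07, and the phospholipase Pla2g15 was 0.70 higher, from 10.11 to 10.81. The sulfatase Arsb was 1.20 lower, from 11.07 to 9.86, and its other transcript cluster was 1.56 lower. Sgsh, the heparan sulfamidase, was 0.82 lower, from 9.81 to 8.98, and the third lower hydrolase was Ctbs, a chitobiase, from 9.31 to 8.56 (named after its value was seen).

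Pump subunits outside the chosen genes are mostly isoforms of other tissues, and 5 of 11 were below the floor in both arrays. The exception in difference was Atp6v0d2, an isoform of Atp6v0d1 found in osteoclasts and some macrophages, which was 1.81 higher, from 10.59 to 12.40, while Atp6v0d1 was 0.12 lower. It is also in the osteoclast list, of which 4 of 8 genes at or above the floor were higher and 0 lower. The other higher ones were Mmp9 (1.07), Ctsk (0.91) and Dcstamp (0.86). Nfatc1, the master factor of osteoclasts, and Ocstamp each had a difference of -0.43. The calcitonin receptor Calcr was below the floor in both arrays. Tcirg1, the a3 isoform, was 0.16 higher, from 11.90 to 12.06, and the lowest were Atp6v1g2 (-0.11) and Atp6v1g1 (-0.039, with a sign that turned under centring and loess).

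Few lysosomal membrane proteins and sorting genes were 1.5-fold apart. As background, 7.54% of all genes at or above the floor were higher and 8.81% lower. Of 18 membrane proteins that reached the floor, 0 were higher by 1.5-fold or more and 1 was lower, 12 (66.7%) had a difference below 0, near the 58.9% of all genes, and the median was -0.17. The lowest were the sialic acid exporter Slc17a5, from 11.84 to 11.04 (-0.80), and Scarb2, the receptor that carries glucocerebrosidase to lysosomes, from 10.41 to 9.89 (-0.52), and the highest were the channel Tpcn2 (0.24) and Laptm4a (0.23). Among 9 sorting genes, 0 were 1.5-fold apart and the median was -0.19. Gnptab, which makes the mannose 6-phosphate tag, was 0.57 lower, from 10.90 to 10.33, and Nagpa, which uncovers it, was 0.39 lower, while sortilin, Sort1, was 0.28 and Gnptg 0.13 higher. Of the 9 sorting genes, 6 had a difference below 0, against 58.9% of all genes at or above the floor, whose median was -0.079. The glycosidases had a median of 0.12, and a link between these groups was not tested.

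Most genes that control TFEB lay within 1.5-fold, as most genes did. Of 17 genes at or above the floor, which comprise mTORC1, its lysosomal anchor and other regulators, 1 was higher (Tfec, above) and 1 lower, the anchor subunit Lamtor4, from 11.23 to 10.52 (-0.71). Each is 5.88% of the list, near the 7.54% and 8.81% of all genes at or above the floor. Rptor, the mTORC1 subunit that recognises substrates, was 0.57 lower, and the anchor subunit Lamtor2 was 0.35 higher. Gsk3b, the kinase of the beta-catenin destruction complex that also phosphorylates TFEB, was at 10.42 in both arrays. Of the cystatins, which inhibit cysteine cathepsins, 3 reached the floor: Cst3 at 13.32 and 13.37, Cstb at 11.68 and 11.37, and Cst7, from 8.54 to 7.68, 0.87 lower.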

How the data were processed

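Expression was measured on 2 arrays, 1 per group. The deposited table holds 1 log2 value for each of 25917 transcript clusters and array, made by the authors with RMA per the submitters' processing notes; the sources used here do not give its version, its settings or whether both columns came from a single run. The log2 scale was read from the range of the values, 2.12 to 14.11. GEO's platform annotation gave 1 gene symbol for 21632 rows, several for 1560 and none for 2725. A RefSeq table of GRCm38.p6 held the Entrez ID of 21537 of the first kind and changed 0 symbols. For a gene with several rows the one with the highest mean was kept. The number of arrays limits the precision.

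Differences, counts past 1.5-fold and medians were computed with Python 3.11.15, pandas 2.3.3 and statsmodels 0.14.6 and checked on simulated data. There is no p-value, because 1 sample per group leaves no residual degrees of freedom. Alternatives were to drop the floor or raise it to the 75th percentile (9.07), centring, quantile normalization of both columns, subtraction of a loess curve (span 0.3), the mean over rows of a gene, and limits of 2-fold and of 0.32 on the log2 scale. Genes and lists were chosen with earlier results of these data known. All lysosomal genes of the set are named, with the 2 highest and 2 lowest genes of each further pathway list at or above the floor, Ctnnb1, and the largest difference of each marker list; other names were chosen after their values were seen, as was the comparison by level. E-box elements were searched in RefSeq promoter windows.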

Additional observations from a re-analysis of the deposited data

How the results depend on the processing

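No paired analysis was possible because each group has 1 sample. The count of lysosomal genes at least 1.5-fold higher stayed within 1.5 times of 4 under each alternative for floor, scaling and rows, from 3 with the mean over rows (without Mitf) to 5 after loess (with Neu1). The count of lower genes was 1 under those alternatives except loess, where it was 0 because Naglu passed to -0.57. With a limit of 2-fold the counts were 0 higher and 0 lower, and with 0.32 on the log2 scale 11 higher and 6 lower. The median of all 45 genes lay between 0.14 and 0.22 under the alternatives, and no role's median moved by 0.1 or more, although that of the lipid hydrolases turned to -0.017 under quantile normalization. Centring turned the sign of Hexa and Lamp1, quantile normalization that of Ppt1 and Atp6v1a, and loess that of Hexa; all were under 0.1. Medians of further lists near 0 turned as well: the other pump subunits, at -0.028, were at 0.046, 0.041 and 0.071 under centring, quantile normalization and loess, and the TFEB and mTORC1 list, at -0.0031, at 0.070, 0.018 and 0.056. The other hydrolases counted as higher went from 2 to 4 under those scalings and to 1 with the floor at the 75th percentile, which Ctsk (8.94) did not reach. The dendritic cell marker median of 0.94 over 3 genes was -0.29 over all 8 without a floor. Without it the mast cell and basophil marker median went from 1.45 over 4 genes to 0.11 over all 7. The osteoclast marker median went from 0.72 over 8 genes to 0.51 over all 10, with 1 gene lower. No value could be had for mast cell markers with the floor at the 75th percentile, which none reached. Leaving out an array is not possible with 1 per group. RMA values carry no detection call, so the floor is a rule of brightness.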

Other observations

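Of 6 measured enzymes that take heparan sulfate apart, 2 were at least 1.5-fold lower (Sgsh and Naglu) and 0 higher. This group was put together after the values were seen and has no test. Over all genes at or above the floor, 8.81% were lower and 7.54% higher by that rule. Of the 6, 5 had a difference below 0, against 58.9% of all genes at or above the floor, with a median of -0.41 (from -0.33 to -0.36 under centring, quantile normalization and loess). In the order of the sugar chain's breakdown they were the sulfatase Ids (10.20 in control, 9.92 in the array labelled deficient), the iduronidase Idua (10.22 and 10.04), the sulfamidase Sgsh (9.81 and 8.98), the acetyltransferase Hgsnat (10.91 and 10.38), Naglu (9.87 and 9.21) and beta-glucuronidase Gusb, the exception (10.88 and 11.13). Loss of any of these enzymes causes a mucopolysaccharidosis.

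Of 5 measured lysosomal sulfatases, also put together after the values were seen and sharing Ids and Sgsh with that group, 2 were at least 1.5-fold lower, Arsb (-1.20) and Sgsh (-0.82). Galns (-0.39) and Ids (-0.29) were below 0 by less and Arsa, at 7.89 and 7.92, was level. For comparison, the same rule called 8.81% of all genes that reached the floor lower and 7.54% higher. Of those genes, 58.9% had a difference below 0. The sulfatase group has no test either. Sumf1, which makes the catalytic residue that all sulfatases need, was 0.36 lower, from 10.10 to 9.74. Cells of other types were not level between the arrays, and their part in these differences was not tested.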
